A study of Mus musculus with 2 samples.

Results

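Aminoacyl-tRNA synthetases are the enzymes that load each amino acid onto its transfer RNA. The 36 mouse genes described here are 20 synthetases of the cytosol and 16 of the mitochondrion, out of 20655 named genes on the arrays. They were taken by name, through the transcript accession of each probe, and symbols ending in 2 were counted as mitochondrial. All 36 had a probe, 45 probes in all, and 35 were well above background on both arrays. Only Nars2, the mitochondrial asparagine enzyme, was dim on both, with signals of 2.88 in bone marrow, against 2.49 in fetal liver. Methionine synthetase, listed here as Mars, is Mars1 in the current gene table.

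The cells were LSK cells, which lack lineage markers and carry Sca-1 and c-Kit, a fraction that holds blood stem cells and multipotent progenitors. They came from bone marrow of wild type C57BL/6 mice aged 8 weeks and from fetal liver of wild type embryos at E14.5, neither transplanted, with 1 array for each source. The strain of the fetal liver donors and any pooling of animals are not given in the labels used here. Tissue, age and slide differ together and cannot be told apart. With 1 array a group there is no replicate check, and no difference below has a test across samples.

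Most synthetases recognise a single amino acid and the transfer RNAs that carry it, and their catalytic domains have the fold of class I or of class II. Proteins made in the cytosol and in the mitochondrion draw on separate pools of charged transfer RNA, so most amino acids have a separate gene for each compartment. Several cytosolic enzymes are held together in a multi-synthetase complex. Many cytosolic synthetase genes are also known in mouse fibroblasts as targets of Atf4, the transcription factor that responds to amino acid shortage and other stresses.

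Synthetase transcripts were mostly lower in bone marrow than in fetal liver LSK cells, by a modest and similar amount in both compartments. After each array was divided by its 75th percentile signal, the median log2 difference, bone marrow minus fetal liver, was -0.51 for the 20 cytosolic genes and -0.50 for the 15 measured mitochondrial genes. The median over all 13384 measured genes was -0.11. Negative differences were seen for 33 of 35 synthetase genes, or 94.3%, against 57.7% of all measured genes. The exceptions were Dars, the cytosolic aspartate enzyme, and Cars2, the mitochondrial cysteine enzyme. In such bulk samples, fewer cells of a type and less RNA per cell cannot be told apart.

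**Figure D1:**
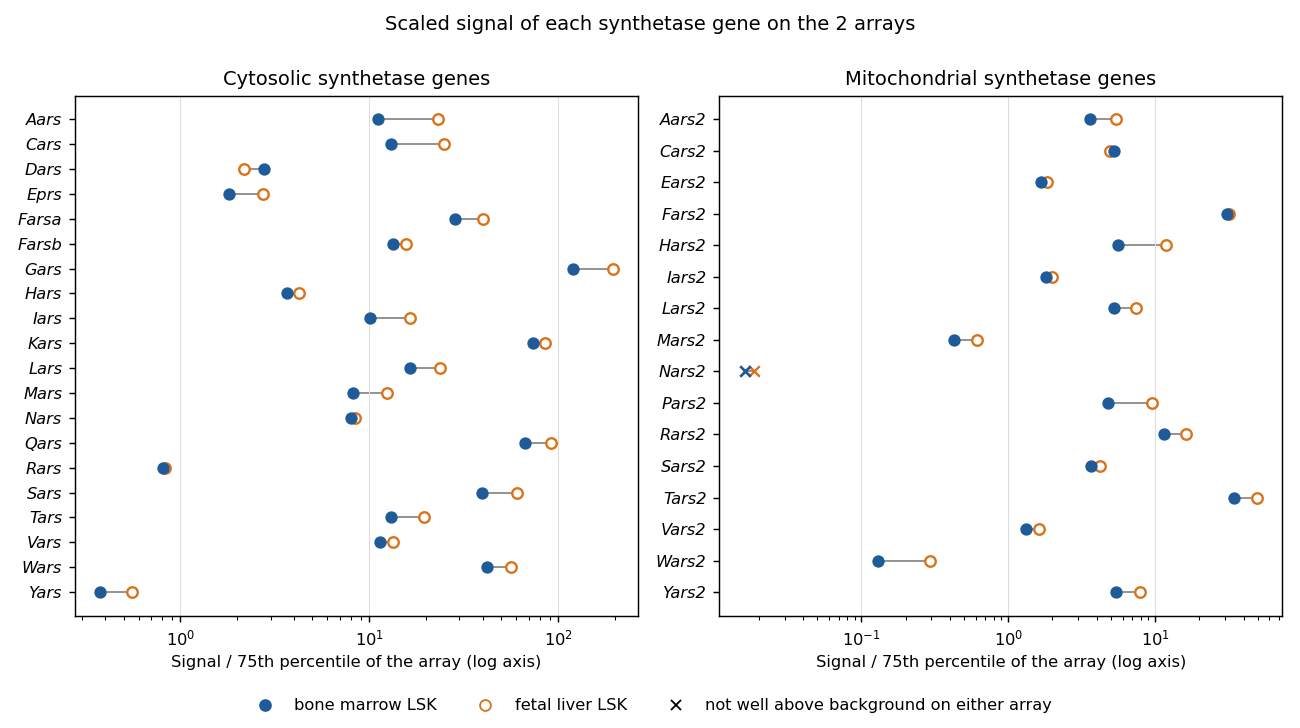
Signal of each synthetase gene divided by the 75th percentile of its array, on a log axis, with 1 filled point for bone marrow and 1 open point for fetal liver LSK cells. The fetal liver point lies to the right for every measured gene but Dars and Cars2, and Nars2, drawn as crosses, was dim on both arrays.

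The size of these differences was small for single genes. A 2-fold difference toward bone marrow, the level being higher there, was reached by 0 of 35 synthetase genes, against 8.11% of all measured genes. A 2-fold difference toward fetal liver was reached by 3 of 35, or 8.57%, a share near the 6.70% of all measured genes. At a fold of 1.5, 0 of 35 went toward bone marrow, against 14.9% of all genes, and 11 of 35 (31.4%) toward fetal liver, against 17.5%. The image software estimates an error for each signal, and for the median member this came to 0.20 on the log2 difference. With 75th percentile scaling, the difference lay below zero by more than 2 such errors for 22 of 35 genes. It lay above zero by more than 1 error for 1 gene, Dars. No count by this error is given for all genes, whose median also lay below zero, at -0.11. Scaling to spike-in RNAs, described next, raises each difference by 0.33, more than 1 median error. The counts by error therefore apply to the 75th percentile scaling only.

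The shift depended on how the arrays were scaled. Scaling to the E1A spike-in RNAs, mixed by the same protocol into the same mass of RNA of each sample, raises each difference by 0.33 and puts the all-gene median at 0.23. The medians were then -0.18 for cytosolic and -0.17 for mitochondrial genes. Lower in bone marrow were then 22 of 35 synthetase genes, against 32.5% of all genes, and 0 of 35 reached 2-fold toward fetal liver, against 3.80%. Over all genes, that scaling put 1739 at 2-fold or more toward bone marrow and 508 toward fetal liver, where the 75th percentile gave 1086 and 897. Relative to the median of all genes, the cytosolic set lay 0.40 lower under either scaling. That is arithmetic, since a constant per array shifts nearly all genes alike. Relative to the same median, the 75th percentile put both sets at -0.40. With normexp, another background correction, they lay at -0.35 (cytosolic) and -0.20 (mitochondrial).

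**Figure D2:**
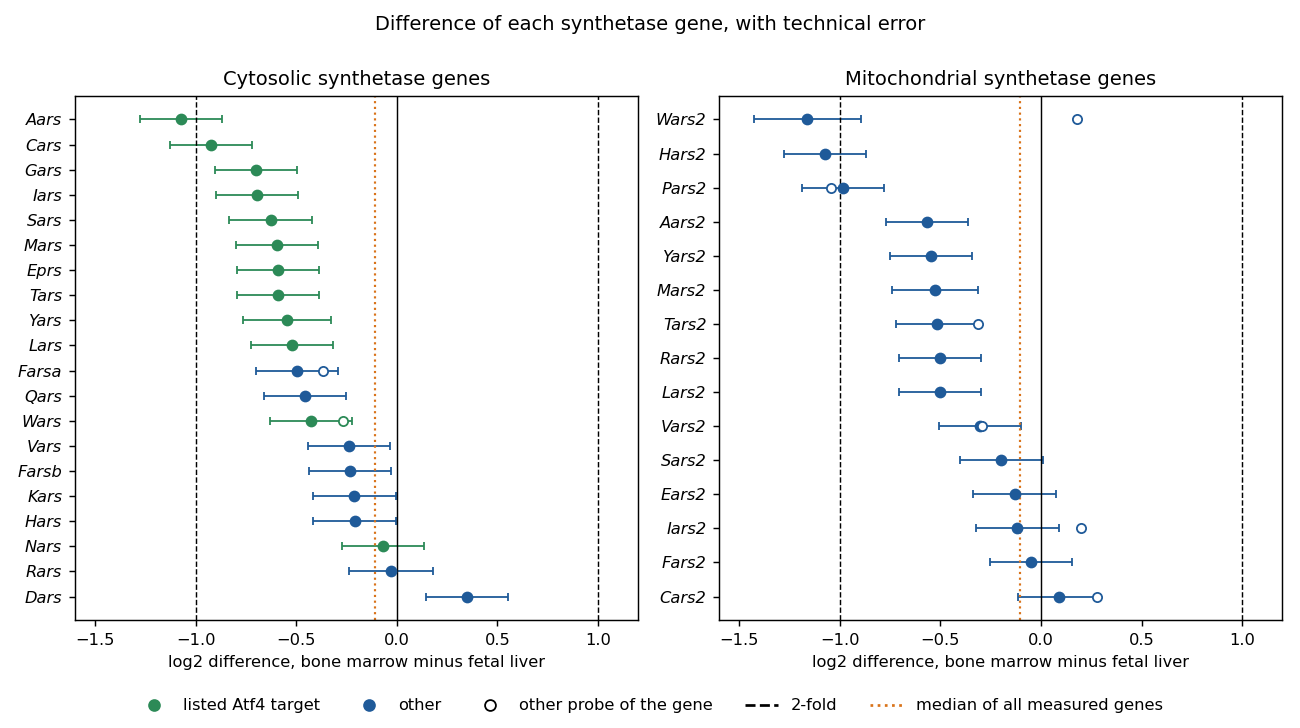
Log2 difference, bone marrow minus fetal liver, of each measured synthetase gene, where filled points are the probe that stands for the gene, bars are its technical error and open points are other probes of the gene. Points left of zero are lower in bone marrow. Aars, Hars2 and Wars2 lie beyond the left dashed line at 2-fold, and the other probe of Wars2 lies right of zero.

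Among the cytosolic enzymes the alanine and cysteine enzymes differed most. Aars, which charges alanine, had a scaled signal of 11.1 in bone marrow, against 23.2 in fetal liver, a log2 difference of -1.07 ± 0.20. Cars, the cysteine enzyme, had 13.1 in bone marrow, against 24.7 in fetal liver (-0.92 ± 0.20). These are 2.10-fold for Aars and 1.89-fold for Cars, higher in fetal liver. A further probe of Aars was dim on both arrays.

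A middle group lay between 1.5-fold and 1.62-fold. Gars, the glycine enzyme, whose gene also supplies the mitochondrial form, had 119.6 in bone marrow, against 194 in fetal liver (-0.70 ± 0.20). Iars, the isoleucine enzyme, had 10.1 in bone marrow, against 16.4 in fetal liver (-0.69 ± 0.20). Sars, the serine enzyme, had 39.4 in bone marrow, against 60.8 in fetal liver (-0.63 ± 0.20). Between 1.5-fold and 1.55-fold were Mars at -0.60, Tars, the threonine enzyme, at -0.59, and Eprs at -0.59. Eprs is a fused protein that charges glutamate and proline.

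The remaining cytosolic genes were under 1.5-fold. Yars, the tyrosine enzyme, had 0.377 in bone marrow, against 0.552 in fetal liver (-0.55 ± 0.22). Lars, the leucine enzyme, was at -0.52, and Qars, the glutamine enzyme, at -0.46. Of the 2 subunits of the phenylalanine enzyme, Farsa was at -0.50 ± 0.20, or -0.37 by its other probe, and Farsb at -0.23 ± 0.20. Wars, the tryptophan enzyme, was at -0.43, or -0.27 by its other probe. Vars (valine), Hars (histidine) and Kars (lysine) lay between -0.24 and -0.21. Nars (asparagine) and Rars (arginine) were at -0.07 and -0.03, within the technical error. Dars had 2.77 in bone marrow, against 2.18 in fetal liver, a difference of 0.35 ± 0.20, the highest of the 35.

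The cytosolic genes known as Atf4 targets had the more negative median difference. The difference between these groups was not tested. The 12 listed targets had a median of -0.59, and 8 of them reached 1.5-fold toward fetal liver, where 17.5% of all measured genes did. The other 8 cytosolic genes had a median of -0.22, and 0 of them reached 1.5-fold either way, against 17.5% of all genes toward fetal liver and 14.9% toward bone marrow. All 12 targets had negative differences, against 57.7% of all measured genes, from -1.07 for Aars to -0.07 for Nars. Spike-in scaling shifts every gene alike, so it leaves the gap between the groups as it is and moves their medians to -0.26 and 0.11, the sign of the second turning positive. Nars and Wars are the listed targets whose values lay among those of the other cytosolic genes. The list was taken from knowledge of fibroblasts and was not tested in these cells.

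The promoters of these genes were searched for the letters TGATGNAA, which cover most of the composite element that Atf4 and C/EBP factors bind, on both strands. RefSeq promoter sequences of build GRCm38.p6, from 250 bases before to 50 bases after the start, were at hand for 27 of the 36 genes. A match was found in 5 of 13 cytosolic promoters and in 0 of 14 mitochondrial ones, against 4.51% of 27025 genes with a promoter in the table. The 5 genes, Aars, Gars, Iars, Tars and Yars, are all listed Atf4 targets and had differences from -1.07 to -0.55, with a median of -0.69. The 8 cytosolic genes with a promoter and no match had a median of -0.48. Among listed Atf4 targets alone, the 3 with a promoter and no match had a median of -0.60, near that of the 5 with one. The promoters with a match are printed below, because these 5 genes share the letters. Their direction does not set them apart, since 33 of 35 synthetase genes had negative differences. The promoter of Aars, with 2 matches, lies on the plus strand at chr8:111033592-111033891 and is given whole. The others are shown as shorter stretches around the match. That of Gars lies at chr6:55037925-55038024 and that of Iars at chr13:49682091-49682179, both on the plus strand. That of Tars lies at chr15:11399620-11399719 on the minus strand, and that of Yars at chr4:129189860-129189952 on the plus strand. Each is written from 5′ to 3′ along its gene, with the matching letters in capitals.
Aars: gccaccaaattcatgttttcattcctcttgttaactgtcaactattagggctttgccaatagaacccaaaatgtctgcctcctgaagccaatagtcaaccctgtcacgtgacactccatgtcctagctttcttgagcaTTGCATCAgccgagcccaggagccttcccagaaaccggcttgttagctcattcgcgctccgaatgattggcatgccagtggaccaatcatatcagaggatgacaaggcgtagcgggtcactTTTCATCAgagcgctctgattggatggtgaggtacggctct
Gars: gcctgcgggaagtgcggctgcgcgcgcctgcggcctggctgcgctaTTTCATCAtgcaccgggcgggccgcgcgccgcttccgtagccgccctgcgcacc
Iars: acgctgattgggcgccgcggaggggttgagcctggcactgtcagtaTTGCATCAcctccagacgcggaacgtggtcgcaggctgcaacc
Tars: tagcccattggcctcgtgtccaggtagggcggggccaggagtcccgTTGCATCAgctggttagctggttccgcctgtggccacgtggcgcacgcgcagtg
Yars: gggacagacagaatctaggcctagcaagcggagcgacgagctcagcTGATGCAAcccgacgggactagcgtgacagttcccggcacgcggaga

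In Aars, Gars, Iars and Tars the match reads along the opposite strand, so that it appears as the reverse complement, and in Yars it reads along the gene. The matches begin between 112 bases before the start and 9 bases after it, both ends of that range being in Aars. The E-box CACGTG, a site for Myc and related factors, was found in 4 of 13 cytosolic promoters (Aars, Iars, Tars and Farsb) and in 1 of 14 mitochondrial promoters (Ears2), against 8.09% of all genes. The letters GCATGCGC, part of the element bound by Nrf1, a regulator of nuclear genes for mitochondria, were found in 0 of 13 cytosolic and 3 of 14 mitochondrial promoters (Rars2, Vars2 and Wars2), against 3.05% of all genes. A match is a run of letters and does not show that a factor binds there.

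Among the mitochondrial enzymes the tryptophan, histidine and proline enzymes had the lowest values. Wars2 had a dim scaled signal of 0.130 in bone marrow, against 0.291 in fetal liver (-1.16 ± 0.26). Its other probe went the other way, with 0.184 in bone marrow, against 0.163 in fetal liver (0.18 ± 0.28), so the direction for Wars2 differs between its probes. Hars2, the histidine enzyme, had 5.63 in bone marrow, against 11.8 in fetal liver (-1.07 ± 0.20). Pars2, the proline enzyme, had 4.82 in bone marrow, against 9.52 in fetal liver (-0.98 ± 0.20). Its other probe was not well above background in bone marrow. It gave -1.04 ± 0.42, from unscaled signals of 12.5 in bone marrow, against 19.3 in fetal liver, both near background.

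A group of 6 mitochondrial genes lay close together between -0.57 and -0.50. They were Aars2 (alanine, -0.57), Yars2 (tyrosine, -0.54), Mars2 (methionine, -0.53), Tars2 (threonine, -0.52), Rars2 (arginine, -0.50) and Lars2 (leucine, -0.50). The other probe of Tars2 was at -0.31. Vars2, the valine enzyme, was at -0.30 by both of its probes. Sars2 (serine, -0.20), Ears2 (glutamate, -0.13), Iars2 (isoleucine, -0.12) and Fars2 (phenylalanine, -0.05) were within the technical error, and the other probe of Iars2 was at 0.20. Cars2 had 5.28 in bone marrow, against 4.97 in fetal liver, a difference of 0.09 ± 0.20, and its other probe was at 0.28. Counted by probe, 38 of 43 measured probes of the family were lower in bone marrow, against 57.7% of all measured genes. No share over all probes was counted. Some genes enter this count by several probes, so it adds no members. Under spike-in scaling, counted by gene, 22 of 35 synthetase genes were lower, against 32.5% of all genes.

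For 12 amino acids both a cytosolic and a mitochondrial gene were measured, and their differences were set side by side. Methionine, threonine, leucine, tyrosine and valine had values within the technical error of each other. The cytosolic gene was the more negative by more than that error for 4 amino acids. They were cysteine (Cars -0.92, Cars2 0.09), isoleucine (Iars -0.69, Iars2 -0.12), alanine (Aars -1.07, Aars2 -0.57) and serine (Sars -0.63, Sars2 -0.20). The mitochondrial gene was the more negative for histidine (Hars -0.21, Hars2 -1.07), tryptophan (Wars -0.43, Wars2 -1.16) and arginine (Rars -0.03, Rars2 -0.50). The median over the 12 of cytosolic minus mitochondrial was -0.04. Cysteine, histidine and tryptophan exceeded 2 errors, and for tryptophan this rested on the Wars2 probe with the higher mean signal. Hars and Hars2 are neighbours in the gene table, and their transcripts differed by 0.86 in how far they were lower in bone marrow.

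**Figure D3:**
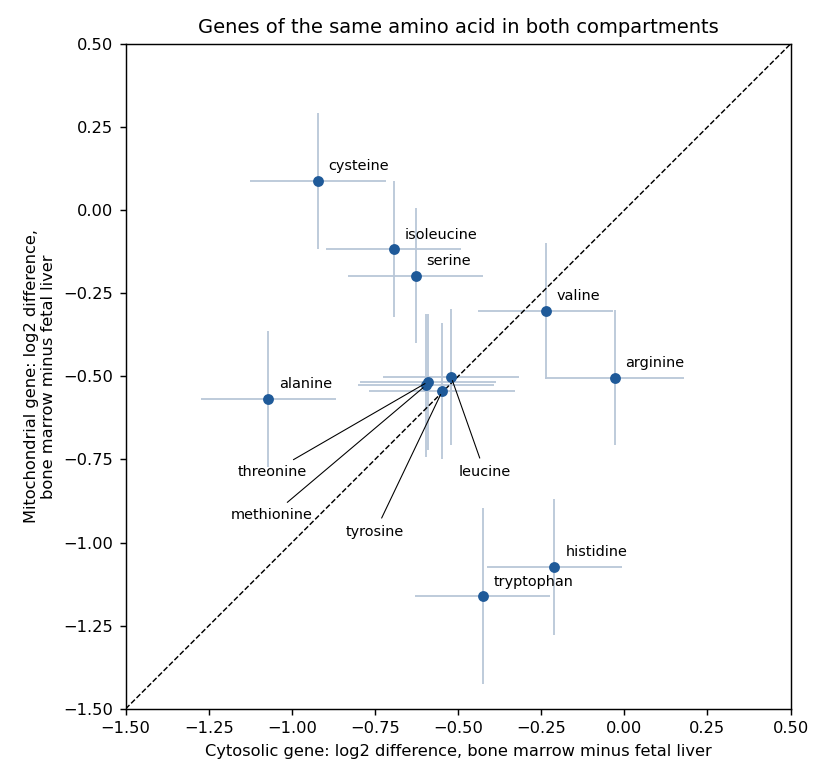
Log2 difference, bone marrow minus fetal liver, of the cytosolic gene (horizontal) and the mitochondrial gene (vertical) for each of 12 amino acids, with technical errors as bars. The dashed line marks equal values. Cysteine lies farthest above it at -0.92 and 0.09, and histidine farthest below it at -0.21 and -1.07.

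The genes were also grouped by catalytic class and by complex membership, and no difference between these groups was tested. The 18 class I genes had a median of -0.50 and the 16 measured class II genes -0.51, leaving aside Eprs, which holds a domain of each class. Within the cytosol, class I genes had a median of -0.52 and class II genes -0.37. The 8 enzymes of the multi-synthetase complex (Eprs, Iars, Lars, Mars, Qars, Rars, Kars and Dars) had a median of -0.49 and the 12 cytosolic enzymes outside it -0.52. The highest value of the cytosolic set, that of Dars, and 3 of its 8 genes that reached 1.5-fold toward fetal liver, Iars, Mars and Eprs, all belong to the complex. Of the scaffold proteins that hold the complex together, Aimp2 had 78.3 in bone marrow, against 153 in fetal liver (-0.97 ± 0.20), Eef1e1 was at -0.49 and Aimp1 at -0.08.

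Of 17 charging and editing genes, which include Sars, 13 were lower in bone marrow, with a median of -0.44, against 57.7% of all measured genes. Under spike-in scaling 10 of the 17 were lower, with a median of -0.10. Of them, 1 of 17 reached 2-fold toward fetal liver, a share near the 6.70% of all genes. It was Xpot, the exporter of transfer RNA from the nucleus and a known Atf4 target, which had 7.75 in bone marrow, against 16.0 in fetal liver (-1.05 ± 0.20). Sepsecs, of selenocysteine synthesis, was at -0.91 from a dim signal, and Trnt1, which adds the CCA end to transfer RNAs, at -0.87. Tarsl2, a further cytosolic threonine enzyme that is not among the 36 genes, was at -0.29.

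The amino acid response genes went in both directions. Of 27 measured genes of that list, 6 reached 2-fold toward bone marrow, against 8.11% of all measured genes. Toward fetal liver 2 of 27 did, a share near the 6.70% of all genes. The median of the list was -0.10. Atf4 itself had 422 in bone marrow, against 163 in fetal liver (1.37 ± 0.20), opposite to its synthetase targets. Also higher in bone marrow were Ddit4, an inhibitor of mTOR signalling, at 3.19, Vldlr, a lipoprotein receptor, at 2.48, and the stress transcription factors Atf3 at 2.32 and Cebpb at 1.42. Ddit3, another stress transcription factor, had 5.87 in bone marrow, against 1.46 in fetal liver. Atf4 is controlled largely by translation of its mRNA, which an array does not measure.

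Enzymes of amino acid synthesis in the same list shared the direction of the synthetases. Asns, asparagine synthetase, had 15.2 in bone marrow, against 53.9 in fetal liver (-1.83 ± 0.20). The serine pathway genes Psat1, Phgdh, Shmt2 and Psph were at -0.93, -0.86, -0.63 and -0.54, Aldh18a1, of proline synthesis, at -0.56, and Mthfd2, of mitochondrial folate metabolism, at -0.49. All 7 measured genes of this role were lower in bone marrow, against 57.7% of all measured genes, with a median of -0.63. The 6 transcription factors of the list had a median of 1.40, with Atf5 the exception at -0.45. The 5 measured amino acid transport genes had a median of -0.10, with 4 negative and Slc3a2, a subunit of amino acid transporters, at 0.80. These roles were drawn after the values were seen. The fetal liver level of Stc2, a secreted glycoprotein dim in bone marrow, was at least 5.82-fold higher.

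**Figure D4:**
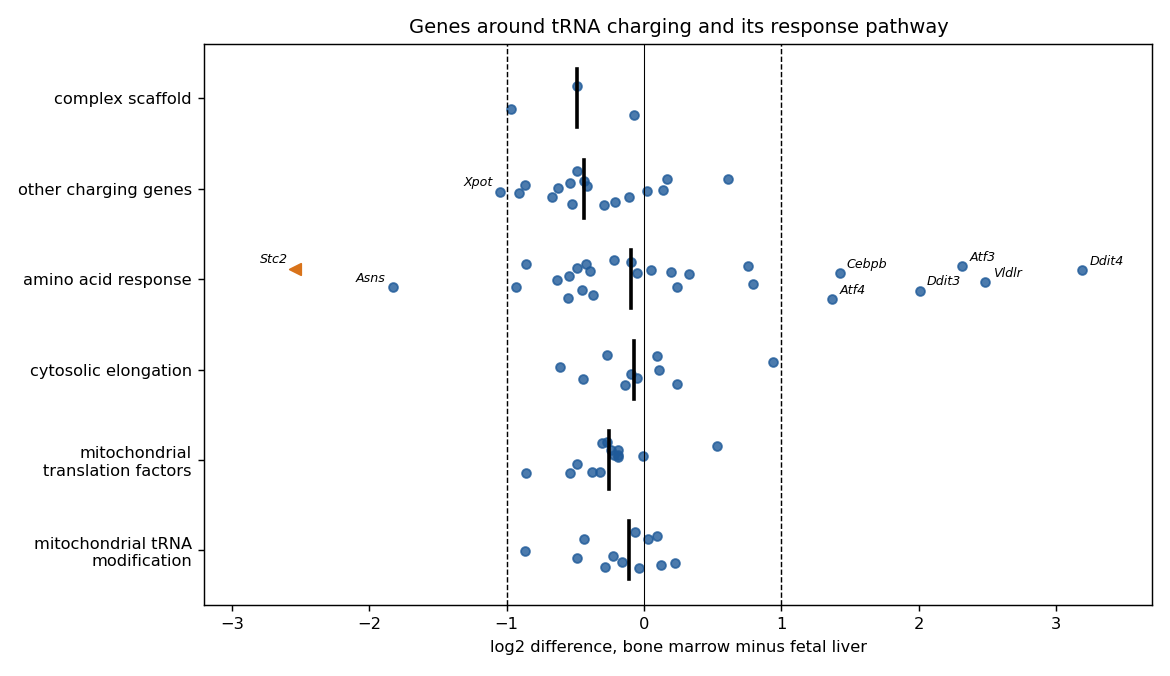
Log2 difference, bone marrow minus fetal liver, of each measured gene in 6 lists around transfer RNA charging, with a black bar at each list's median, labels on genes at least 2-fold different and an arrowhead for a bound. The amino acid response list spreads from Asns at -1.83 and the bound of Stc2 at -2.54 to Ddit4 at 3.19, while the mitochondrial translation factors all lie within 2-fold.

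Compared with the rest of the translation machinery, the synthetases resembled mitochondrial more than cytosolic ribosomal proteins in the size of their median difference. Of all measured genes, 57.7% were negative, 8.11% were at least 2-fold toward bone marrow and 6.70% toward fetal liver. At 1.5-fold these shares were 14.9% and 17.5%. The 77 measured mitochondrial ribosomal protein genes had a median of -0.42, with 71 negative and 0 at least 2-fold either way. They were led by Mrps31 at -0.98, Mrpl41 at -0.87 and Mrps22 at -0.86. The 80 cytosolic ribosomal protein genes had a median of -0.18, with 59 negative and 0 at least 1.5-fold, led by Rpl11 at -0.50, Rpl41 at -0.46 and Rps27a at -0.43. Mitochondrial translation factors had a median of -0.25, with 13 of 14 negative and 0 at least 2-fold. Their widest values were Mrpl58, a release factor within the mitochondrial ribosome and counted in that list too, at -0.86, Gfm2, a ribosome recycling factor, at -0.54, and Mrrf, another recycling factor, at 0.53. The 10 cytosolic elongation and termination factors had a median of -0.07. Among them Eef2k, the kinase that inhibits elongation factor 2, was at 0.94, Abce1, a recycling factor, at -0.61 and Gspt1, a release factor, at -0.44. Under spike-in scaling the median was -0.08 for mitochondrial ribosomal proteins, with 48 of 77 negative, against 32.5% of all genes. For cytosolic ribosomal proteins it was 0.15, with 15 of 80 negative. For mitochondrial translation factors it was 0.08, with 4 of 14 negative, and for the cytosolic factors 0.26, with 2 of 10. None of these differences between lists was tested.

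**Figure D5:**
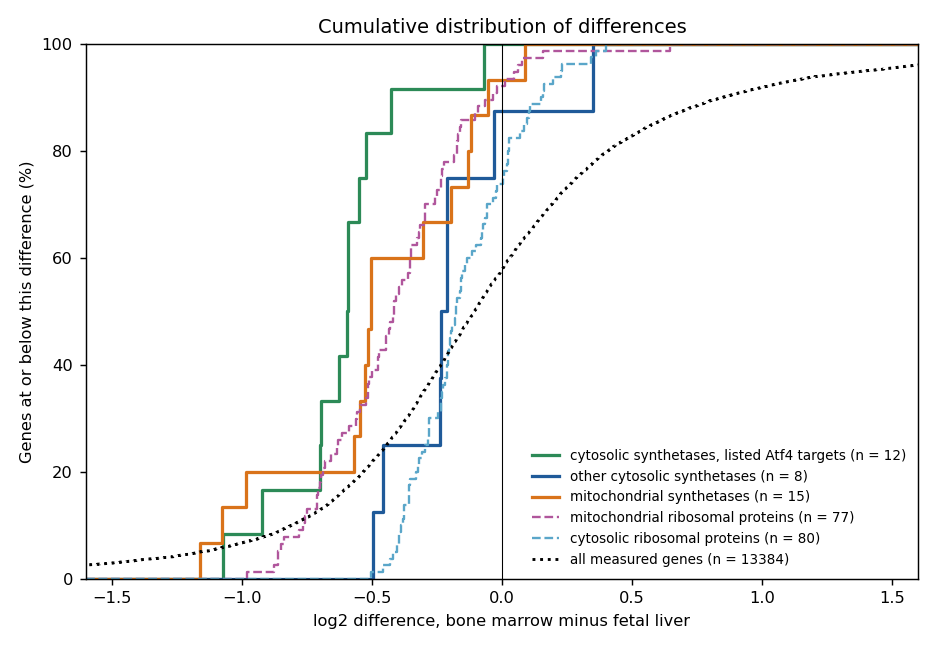
Share of genes at or below each log2 difference, bone marrow minus fetal liver, for the synthetase groups, the ribosomal protein genes and all 13384 measured genes. The curve of the 12 listed Atf4 targets lies farthest left at its middle (-0.59), the mitochondrial synthetases (-0.50) run near the mitochondrial ribosomal proteins (-0.42), and the other 8 cytosolic synthetases (-0.22) near the cytosolic ribosomal proteins (-0.18).

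The populations also differed in markers of more mature cells. Kit was at 22.8 in bone marrow, against 22.9 in fetal liver, and Ly6a, which encodes Sca-1, at 21.5 in bone marrow, against 4.43 in fetal liver. Ms4a1 of B cells was dim on both arrays, while Cd3e of T cells and Itgam of myeloid cells were above background on both. Of 10 measured erythroid genes, 6 reached 2-fold toward fetal liver, against 6.70% of all measured genes. Their summed scaled signal was 129 in bone marrow, against 838 in fetal liver. Hbb-bt alone made up 94.9 in bone marrow, against 755 in fetal liver. Of 11 neutrophil genes, 7 reached 2-fold toward bone marrow, against 8.11% of all measured genes. They summed to 1080.2 in bone marrow, against 701 in fetal liver. Mpo alone made up 657 in bone marrow, against 545 in fetal liver. Of the hepatocyte genes, Alb, Apoa1, Ttr and Ahsg were dim on both arrays, and of the 6 measured ones 3 were higher and 3 lower in bone marrow. They summed to 91.5 in bone marrow, against 47.0 in fetal liver, of which Trf alone made up 69.6 in bone marrow, against 28.9 in fetal liver. Of 5 measured macrophage genes 3 were higher and 2 lower in bone marrow, with a median difference of 0.02. They summed to 28.1 in bone marrow, against 34.2 in fetal liver, nearly all of it Csf1r, at 27.6 in bone marrow, against 33.8 in fetal liver. The part of these cells in the synthetase values was not tested.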

How the data were processed

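Total RNA (20 ng, per the labels' protocols) was labelled with Cy3 and hybridised to 1-colour Agilent arrays. The deposited spot intensity values were made by Agilent Feature Extraction 10.7.1.1, per the file headers, which also give background and spatial trend terms fitted within each array. The flags of each spot came from the same software. The deposited series value table holds, as the authors made it, a ratio of the signal to 1 constant per array (178.6 for bone marrow, 133.9 for fetal liver), which a comparison with the scanner values showed. Its values are linear, with no centring of genes.

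Of 62976 spots on each array, control spots and spots marked as outliers (137 in bone marrow, 122 in fetal liver) were left out, and none was saturated. Repeated spots were averaged, and a probe was well above background when most of its spots were. Such probes made up 47.4% in bone marrow and 46.4% in fetal liver. Signals were divided by the 75th percentile of the array (178.9 in bone marrow, 134.0 in fetal liver) and log2 taken. Of 55664 probes on both arrays, 27226 were named through the transcript accession in the RefSeq gene table (GRCm38.p6), which was used for names and neighbours only, since the design is built on mm9. Promoter sequences are RefSeq's. A gene took its probe with the highest mean log2 signal among those that passed on 1 array or both. Where a probe was well above background on only 1 array, the dim side was raised, where lower, to the least signal that passed on that array (12.4 in bone marrow, 9.82 in fetal liver), which makes the fold a lower bound.

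No test was made, since each group has 1 array, and genes were counted by fold. Precision is limited by this number of arrays. The value after ± is the error of the difference from the software's signal errors. Over 247 probes with repeated spots, the median SD of a difference between single spots was 0.09. Of 10 spike-in controls, 8 were well above background on both arrays, with a median unscaled difference of 0.08 (SD 0.17). The members, the lists and the rule for named genes (all 36 members, and in each other list the 3 widest genes and every 2-fold gene) were chosen with earlier results of these data known. For the markers and interferon genes only some such genes are named, and the amino acid synthesis genes were named after their values were seen. The steps were tested on simulated data and run in Python 3.11.15 with pandas 2.3.3, and normexp in limma 3.58.1, on the median spot and background signals (the mean spot signal was not used here). Some genes of the lists are not reported here.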

Additional observations from a re-analysis of the deposited data

How the results depend on the processing

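Directions and counts were recomputed under other scalings, background correction, filters and probe rules. The 75th percentile, median scaling, the authors' value table, both other filters on dim probes and keeping the marked spots each gave Aars, Hars2 and Wars2 at 2-fold or more toward fetal liver, with 0 genes toward bone marrow. Agreement of most of these settings was built in. The authors' table divides the same signals by constants near the 75th percentiles. All 35 measured genes were well above background on both arrays, so the filters on dim probes leave them unchanged. The count in fetal liver was 0 with spike-in scaling, 1 (Wars2) with quantile normalization, 0 with normexp and 11 at a threshold of 1.5-fold. Averaging over probes gave 3 genes, of which 2 were shared, with Pars2 (-1.01) in place of Wars2 (-0.49). With spike-in scaling the cytosolic median was -0.18 and the mitochondrial median -0.17, and with normexp, run on the median spot signals so that input and correction changed together, the mitochondrial median was -0.27. The cause was not tested. The cytosolic minus the mitochondrial median was -0.01, and ranged from -0.16 with normexp to 0.00 with averaged probes. Scalings by 1 constant per array cannot move it. Leaving both Gars and Kars out of the cytosolic set kept its median at -0.51. Over all genes, normexp put 606 at 2-fold or more toward bone marrow and 379 toward fetal liver, and no filter on dim probes put 1645 and 1678, where the 75th percentile gave 1086 and 897. Under spike-in scaling 11 synthetase genes with small negative values turned positive, from Vars2 (0.03) to Rars (0.30). No paired analysis was possible because there was 1 array per group. Signal over background limits Wars2, Mars2 and Yars, the dimmest measured members.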

Other observations

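Wars, the cytosolic tryptophan enzyme, is known in human cells as a gene induced by interferon gamma. Of 13 measured interferon response genes, 9 reached 2-fold toward bone marrow, against 8.11% of all measured genes. All 13 had positive differences, bone marrow minus fetal liver, with a median of 1.57, where 57.7% of all genes had negative ones. Cxcl10, a chemokine, was at 3.55, Irf1, a transcription factor, at 2.12, and Gbp2, a GTPase, at 2.10. Wars had a scaled signal of 41.7 in bone marrow, against 56.1 in fetal liver, a difference of -0.43, and so did not go with them.

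Genes that modify and process mitochondrial transfer RNA had a median of -0.11 over 12 measured members, close to that of all genes (-0.11). Of the 12, 0 were at least 2-fold either way, against 8.11% of all genes toward bone marrow and 6.70% toward fetal liver. Trnt1 was at -0.87, Elac2, which cuts the 3′ end, at -0.49, and Trmu, which adds sulphur to the wobble base, at -0.44.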
